A study of Saccharomyces cerevisiae with 6 samples.

Results

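The histone genes of the yeast Saccharomyces cerevisiae were described from RNA-Seq of strain BJ5464, a laboratory strain labelled as a URA3 deletion (delta-URA3). The 10 genes were taken by locus tag, with no cut-off on their values, though with earlier results of these data known. All 10 genes were among the 5793 features of the deposited table. They comprised 8 core histone genes, the H2A variant gene HTZ1 and the linker histone gene HHO1. The libraries were of polyadenylated RNA from 3 aliquots of heat shocked cells, held at 37 °C for 20 min, and from 3 aliquots of cells under optimal growth at 28 °C. Both groups were parts of a single YPD culture, so the aliquots are not independent cultures. In the study they served as the expression measurement in fresh cells beside chromatin assays of fixed cells.

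The only measurement used here was the authors' mean log2 CPM, the log2 of the mean of counts scaled to library size (CPM) over all 6 libraries of both groups. It gives 1 value per gene. The level under heat shock and the level under optimal growth are therefore not given separately, no standard deviation or test was possible, and the read depth per library is unknown. The back-transformed means of all features summed to 1000910 CPM. Their log2 values ran between -0.55 and 14.12, with a median of 6.26.

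Histones package DNA into nucleosomes, in each of which DNA is wrapped around an octamer of H2A, H2B, H3 and H4. In budding yeast each core histone is encoded by a pair of gene copies, and the copies are arranged head to head, an H2A gene with an H2B gene and an H3 gene with an H4 gene, around a shared upstream region. Their transcription is known to peak in S phase, when new DNA must be packaged, and unlike the main histone messengers of animals their messengers are polyadenylated. Htz1 replaces H2A in nucleosomes near promoters, and Hho1 is the yeast linker histone.

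The sequences shared by the 4 head-to-head pairs lie in the gaps between their start codons. HTA1-HTB1 lies on chromosome IV, HTA2-HTB2 and HHT1-HHF1 on chromosome II and HHT2-HHF2 on chromosome XIV. Spt10 is an activator that binds histone upstream elements, and its element was searched here as TTCC, any 6 bases and then TTCNC. The stretches around the matches are shown because this element was found in all 4 gaps. They are the plus strand of assembly R64 (RefSeq), with the matches in capitals on either strand, and they cover chrIV:915069-915196, chrII:236063-236167, chrII:255899-256003 and chrXIV:576301-576405.
HTA1-HTB1: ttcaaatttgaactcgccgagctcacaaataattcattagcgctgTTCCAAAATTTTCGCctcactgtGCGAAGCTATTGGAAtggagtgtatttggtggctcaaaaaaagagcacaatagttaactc
HTA2-HTB2: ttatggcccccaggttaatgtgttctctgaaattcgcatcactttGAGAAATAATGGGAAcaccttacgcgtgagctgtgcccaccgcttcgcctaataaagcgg
HHT1-HHF1: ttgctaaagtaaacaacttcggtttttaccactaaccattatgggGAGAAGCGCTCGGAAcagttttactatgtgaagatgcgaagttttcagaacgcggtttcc
HHT2-HHF2: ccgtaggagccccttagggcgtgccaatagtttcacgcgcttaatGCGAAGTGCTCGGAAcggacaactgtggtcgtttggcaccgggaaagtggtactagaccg

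The gap of HTA1-HTB1 held 2 matches and each of the other gaps held 1. Among the 196 other divergent gaps between the shortest and the longest histone gap in length, 8.67% held a match and 0 held 2. The matches lay near the middle of the gaps, with centres between -56.5 and 23 bases from the middle, counted along the plus strand. They all lay outside the promoter window of 250 bases before to 50 after a start codon, where 0 of the 10 histone genes and 1.54% of 5706 protein-coding genes had one. The upstream gaps of HTZ1, towards PLB3, and of HHO1, towards NAN1, held 0 matches. A match is a match of letters and not a measurement of binding. The pattern searched is itself an element of histone genes, so its presence in these gaps is a description and not independent evidence.

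**Figure D1:**
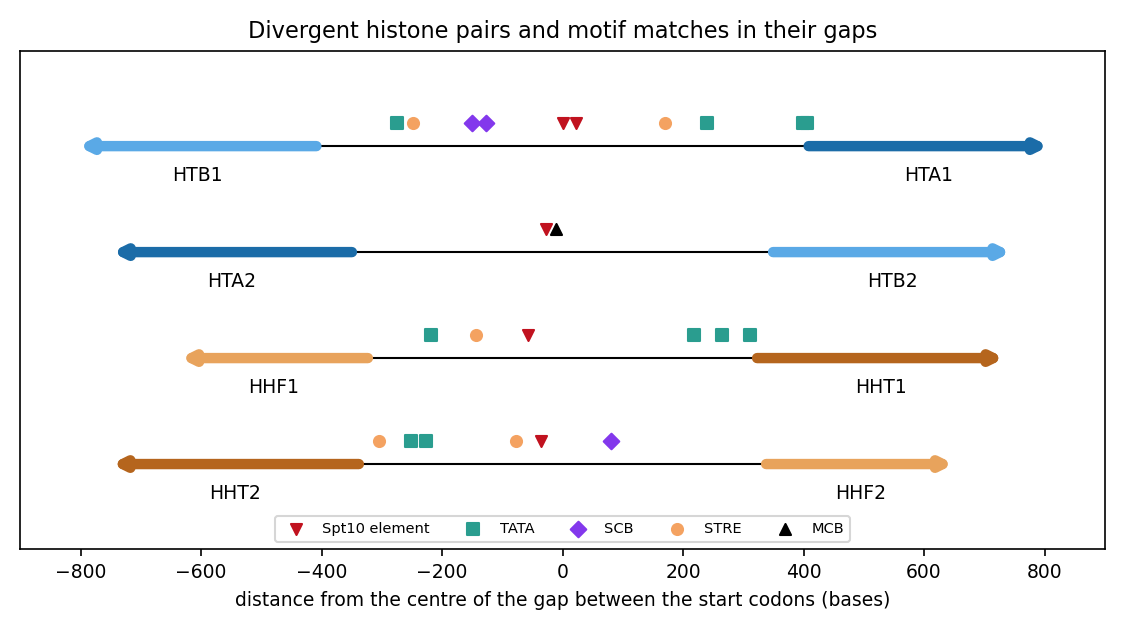
Map of the 4 divergent histone pairs, drawn to scale, with the distance in bases from the middle of the gap between the start codons on the x axis. Arrows are coding sequences in the direction of transcription and symbols are motif matches within the gaps; the Spt10 element (red) lies near the middle of all 4 gaps.

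None of the other motifs was found in all 4 gaps. TATAAA, the core of the TATA box, was found in the promoter windows of HTA1, HTB1, HHT1, HHF1 and HHT2, 5 of the 10 genes, against 44.7% of all promoters. Over whole gaps it had 4 matches in HTA1-HTB1, 0 in HTA2-HTB2, 4 in HHT1-HHF1 and 2 in HHT2-HHF2. Among the other gaps of similar length, 73.5% had a match, 38.3% had 2 or more and 16.3% had 3 or more. CGCGAAA, the SCB element bound by Swi4 with Swi6, had 2 matches in the HTA1-HTB1 gap and 1 in the HHT2-HHF2 gap. Of the other gaps of similar length, 8.67% had a match and 0 had 2 or more, the same shares as for the Spt10 element. HHO1 was the only one of the 10 with an SCB match in its promoter window, at a base count of -181 from its start codon, a window match that 3.65% of promoters had. This rests on the window edge of 250 bases. The gap matches lay just outside it, 255 and 279 bases from the start codon of HTB1 and 255 bases from that of HHF2. ACGCGT, the MCB element bound by Mbp1 with Swi6, occurred once, in the HTA2-HTB2 gap, where 7.14% of similar gaps had a match. AGGGG, the stress element bound by Msn2 and Msn4, was in the windows of HTA1, HTB1, HHF1 and HHT2, 4 of 10, against 21.9% of promoters. Over whole gaps it had 2 matches in HTA1-HTB1, 0 in HTA2-HTB2, 1 in HHT1-HHF1 and 2 in HHT2-HHF2. Among the other gaps of similar length, 60.7% had a match and 23.5% had 2 or more. The heat shock element bound by Hsf1, searched as GAA, TTC and GAA each set apart by 2 bases, was in 0 of the 10 windows, against 0.806% of promoters, and in 0 of the 4 gaps, against 4.08% of the other gaps of similar length.

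The 8 core histone genes were among the most abundant messengers per kilobase, and HTZ1 and HHO1 stood well below them. Genes are compared below per kilobase of coding length, as CPM per kilobase or its log2, unless a sentence says that no scaling was used. Every core gene was above the 90th percentile of the 5706 protein-coding features, which was 8.34 on the log2 scale, and the median of those features was 5.88. The 8 core genes spanned a 2.42-fold range. The deposited means have no error that could be attached to these orders, so neighbours in an order cannot be said to differ beyond the spread between libraries.

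HTA1 and HTA2 encode the main H2A. HTA1 (YDR225W, chrIV:915530-915928, plus strand, 1 exon) had a mean of 490 CPM, 8.94 on the log2 scale, and 10.26 as log2 CPM per kilobase. HTA2 (YBL003C, chrII:235394-235792, minus strand, 1 exon) had 416 CPM, a log2 mean of 8.70 and 10.03 as log2 CPM per kilobase, the lowest of the 8 core genes. The H2A genes stood above 96.8% and 96.5% of protein-coding features per kilobase, in ranks 181 and 201.

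HTB1 and HTB2 encode H2B. HTB1 (YDR224C, chrIV:914317-914712, minus strand, 1 exon) had 825 CPM, a log2 mean of 9.69 and 11.02 as log2 CPM per kilobase, in rank 92. HTB2 (YBL002W, chrII:236492-236887, plus strand, 1 exon) had 462 CPM, a log2 mean of 8.85 and 10.19 as log2 CPM per kilobase, in rank 192. HTB1 was thus at the upper end of the core genes and HTB2 near the lower end.

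HHT1 and HHT2 encode the same H3 protein. HHT1 (YBR010W, chrII:256331-256741, plus strand, 1 exon) had 604 CPM, a log2 mean of 9.24 and 10.52 as log2 CPM per kilobase, in rank 150. HHT2 (YNL031C, chrXIV:575640-576050, minus strand, 1 exon) had 1035 CPM, a log2 mean of 10.02 and 11.30 as log2 CPM per kilobase. It was the highest of the 10 genes, in rank 59 of 5706 and above 99.0% of features.

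HHF1 and HHF2 encode the same H4 protein. HHF1 (YBR009C, chrII:255373-255684, minus strand, 1 exon) had 483 CPM, a log2 mean of 8.92 and 10.60 as log2 CPM per kilobase, in rank 140. HHF2 (YNL030W, chrXIV:576727-577038, plus strand, 1 exon) had 646 CPM, a log2 mean of 9.34 and 11.02 as log2 CPM per kilobase, in rank 93. Per kilobase, the order of the core genes was HHT2, HTB1, HHF2, HHF1, HHT1, HTA1, HTB2 and HTA2.

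HTZ1 (YOL012C, chrXV:303579-303983, minus strand, 1 exon) had 86.5 CPM, a log2 mean of 6.44 and 7.74 as log2 CPM per kilobase. HHO1 (YPL127C, chrXVI:308828-309604, minus strand, 1 exon) had 189 CPM, a log2 mean of 7.56 and 7.93 as log2 CPM per kilobase. They stood above 84.8% and 86.5% of features, in ranks 869 and 770. Both were below every core gene and above the upper quartile of all features, 7.01.

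**Figure D2:**
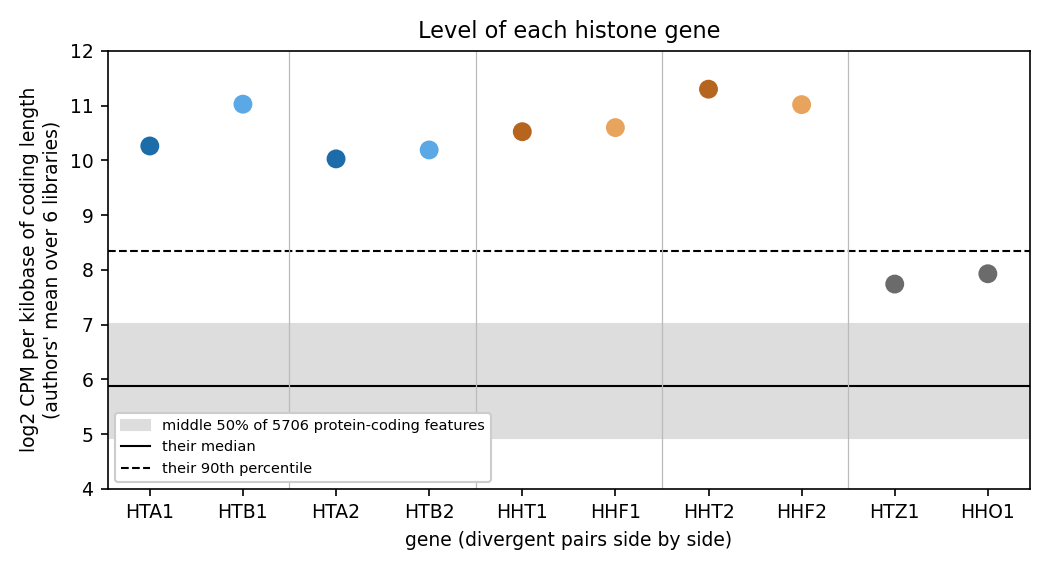
Level of each histone gene, as log2 CPM per kilobase of coding length from the authors' mean over 6 libraries, with the genes of a divergent pair side by side. The 8 core genes lie between 10.03 and 11.30, above the 90th percentile of all features (dashed, 8.34), and HTZ1 and HHO1 lie below it.

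The scaling by length matters for genes this short. The core coding sequences had between 312 and 411 bases, against a median of 1224 over all features, and short features had a higher median per kilobase. Among the 435 features with 300 to 450 coding bases the median was 6.71 as log2 CPM per kilobase, against 5.88 over all. Compared without scaling and only with those short features, the core genes stood above 84.4% to 96.1% of them, and HHT2 ranked 17. HTZ1 stood above 68.7% of them. Whether reads outside the coding sequence were counted is not stated in the sources used here.

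Summed over the copies, the 4 core histones were of the same order. H2A reached 2269 CPM per kilobase, H2B 3250, H3 3989 and H4 3619. H3 over H4 was 1.10, an order that turned round (5155 against 5455) when length was counted only in 50-base words that occur once in the genome, H2B over H2A was 1.43, and the highest, H3, was 1.76 times the lowest, H2A. H3 and H4 together had 1.38 times the level of H2A and H2B together. The octamer holds equal numbers of these proteins, and the levels given here are of messenger RNA alone.

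The H2A variant gene and the linker histone gene were minor by the same measure. HTZ1 had 214 CPM per kilobase, 8.61% of the sum of the H2A genes and HTZ1. The H2A genes together had 10.6 times its level. HHO1 had 243 CPM per kilobase, and the mean of the 4 core histones was 13.5 times that. The 10 genes held 0.523% of all CPM, of which the 8 core genes held 0.496%.

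**Figure D3:**
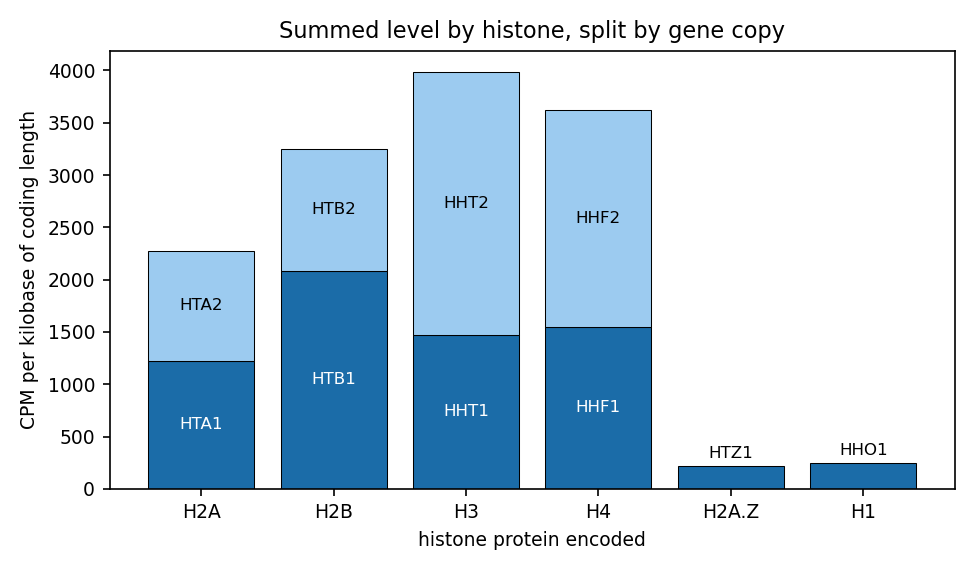
Summed level of each histone in CPM per kilobase of coding length, with the bar divided by gene copy (first-named copy dark, second light). H3 and H4 are the highest bars at 3989 and 3619, H2A the lowest core histone at 2269, and H2A.Z (HTZ1) and H1 (HHO1) are at 214 and 243.

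For each core histone, 1 copy had the larger level, and these copies lay in the pairs HTA1-HTB1 and HHT2-HHF2. HTA1 minus HTA2 was 0.24 on the log2 scale, a ratio of 1.18. HTB1 minus HTB2 was 0.84, a ratio of 1.79. HHT1 minus HHT2 was -0.78, so that HHT2 had 1.71 times the level of HHT1. HHF1 minus HHF2 was -0.42, so that HHF2 had 1.34 times the level of HHF1. The larger copy held 54.1% of H2A, 64.1% of H2B, 63.1% of H3 and 57.2% of H4. As pairs, HTA1-HTB1 held 60.0% of the summed level of H2A and H2B, and HHT2-HHF2 held 60.3% of that of H3 and H4. With no error for any mean, the size of these differences cannot be set against the spread between libraries.

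The copies of a histone could share reads, because their coding sequences are close. HHF1 and HHF2 differed at 8 of 312 bases, all of them at the last base of a codon, and their proteins were identical. HHT1 and HHT2 differed at 28 of 411 bases and encoded identical proteins. HTA1 and HTA2 differed at 25 of 399 bases and at 2 of 132 residues. HTB1 and HTB2 differed most, at 48 of 396 bases and 4 of 131 residues. The first 120 coding bases of the closest and of the most different copies are shown, from assembly R64, with the bases at which they differ in capitals; in this stretch the H4 copies differed at 3 bases and the H2B copies at 24.
HHF1: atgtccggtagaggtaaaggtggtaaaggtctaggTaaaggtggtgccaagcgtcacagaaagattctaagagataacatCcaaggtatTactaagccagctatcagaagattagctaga
HHF2: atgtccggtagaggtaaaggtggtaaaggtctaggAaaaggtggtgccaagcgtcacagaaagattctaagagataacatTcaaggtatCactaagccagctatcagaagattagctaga
HTB1: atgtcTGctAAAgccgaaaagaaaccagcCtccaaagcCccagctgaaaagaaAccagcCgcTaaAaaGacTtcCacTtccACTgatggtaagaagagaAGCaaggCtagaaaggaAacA
HTB2: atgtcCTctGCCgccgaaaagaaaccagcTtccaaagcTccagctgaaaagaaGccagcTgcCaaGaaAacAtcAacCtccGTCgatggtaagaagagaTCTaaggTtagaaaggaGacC

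Of all 50-base words of a coding sequence, 21.3% of those of HHF1 and of HHF2 occurred elsewhere in the genome, in each case in the other copy. The share was 12.2% for HHT1 and HHT2, 4.57% for HTA1 and HTA2, and 0% for HTB1, HTB2, HTZ1 and HHO1. With words of 75 bases it was 2.52% for the H4 copies and 0% for all others, and with words of 100 bases it was 0% for all 10 genes. The longest identical runs were of 80 bases in H4, 74 in H3, 65 in H2A and 35 in H2B. The run shared by HHF1 and HHF2, coding bases 91 to 170, is the longest of these, and a read lying wholly within it matches both copies.
HHF1 and HHF2: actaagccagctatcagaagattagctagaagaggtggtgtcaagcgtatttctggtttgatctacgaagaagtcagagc
The read length of these libraries and the handling of reads with several matches are not given in the sources used here. The separate levels of HHF1 and HHF2, and less so of HHT1 and HHT2 and of HTA1 and HTA2, are therefore uncertain, while the level of HTB1 relative to HTB2 does not rest on words that they share.

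Within the divergent pairs, the genes differed by at most 1.70-fold. HTA1 minus HTB1 was -0.76 as log2 CPM per kilobase, so that HTB1 had 1.70 times the level of HTA1. HTA2 minus HTB2 was -0.16, HHT1 minus HHF1 was -0.07 and HHT2 minus HHF2 was 0.28. In the whole table, the absolute difference had a median of 1.37 over 1389 other divergent pairs, with quartiles of 0.68 and 2.49. Of these pairs, 28.4% had a smaller absolute difference than HTA1-HTB1, 11.7% a smaller one than HHT2-HHF2, 6.55% a smaller one than HTA2-HTB2 and 3.02% a smaller one than HHT1-HHF1. The gaps of the histone pairs had 817 (HTA1-HTB1), 699 (HTA2-HTB2), 646 (HHT1-HHF1) and 676 bases (HHT2-HHF2), against a median of 503 over the other pairs.

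The histone pairs were also high as pairs. Their mean log2 level was above that of 99.5% to 99.9% of the other divergent pairs. Only 7 other pairs had a mean as high as the lowest histone pair, with a median absolute difference of 1.01, and 3 of these 7 differed by no more than HTA1-HTB1. The order of HHT1 and HHF1 depends on the scaling, since HHT1 was the higher by 0.32 without scaling by length. With length counted in words that occur once, HHT1 minus HHF1 was -0.30. HHT2 minus HHF2 was 0.68 without scaling and 0.06 with such words. The places of these pairs among the other divergent pairs therefore rest on scaling by coding length.

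**Figure D4:**
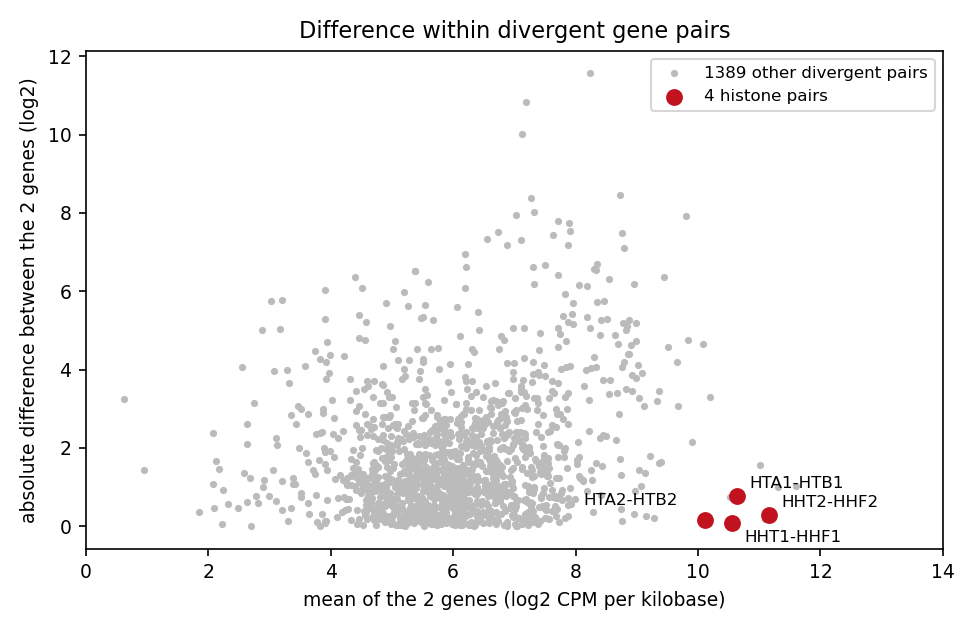
Absolute difference between the genes of a divergent pair (y, log2) against their mean (x, log2 CPM per kilobase of coding length), for the 4 histone pairs in red and 1389 other pairs in grey. The histone pairs lie at the upper end of the means with differences of at most 0.76, against a median of 1.37 over the other pairs.

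The 8 features beside the histone pairs had a median of 5.91 as log2 CPM per kilobase, close to the median of 5.88 over all features, and 4 of the 8 were above that median. All 8 had a lower level than the histone gene they flank, as did at least 96.5% of all features, with a median difference of 5.03 on the log2 scale. The nearest in level was IPP1, inorganic pyrophosphatase, beside HHT1 with a difference of 0.51, followed by ADK1, adenylate kinase, beside HTA1 with 0.96 and ECM15 beside HTB2 with 1.33. The other neighbours were CRF1, UTP20, FLR1, SIW14 and KTR5, with differences between 4.66 and 6.59. HTZ1 exceeded its neighbours HRD1 and PLB3 by 2.22 and 2.50, and HHO1 exceeded TBF1 and NAN1 by 2.32 and 1.26.

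The core genes used the codons preferred by abundant genes more often than HTZ1 and HHO1 did. For each amino acid, the preferred codon was taken as the most frequent one in the 200 features of highest level per kilobase, with the 10 histone genes left out. The core genes used preferred codons at 62.0% (HTB2) to 73.6% (HTB1) of positions, against a median of 38.4% over all features and 74.0% over those 200. The values were 73.3% in HTA1, 67.2% in HTA2, 71.1% in HHT1, 68.1% in HHT2, 72.5% in HHF1 and 70.6% in HHF2. HTZ1 had 41.4% and HHO1 40.4%, above 68.8% and 63.6% of all features. For H2A, the copy of higher level had the higher share, as for H2B, whereas for H3 and H4 the copy of higher level had the lower share.

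Across all 5706 features the share of preferred codons and the level per kilobase had a Spearman correlation of 0.534, as a description across genes, which are not replicates; the codons were chosen from abundant features, so the measures are not independent. The 139 other features whose share lay in the range of the core histones had a median of 9.67 as log2 CPM per kilobase, and every core histone gene was above it. GC content of the coding sequences was 40.9% (HTB1) to 43.3% (HHT1) in the core genes, 43.0% in HTZ1 and 46.2% in HHO1, against a median of 39.8%.

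**Figure D5:**
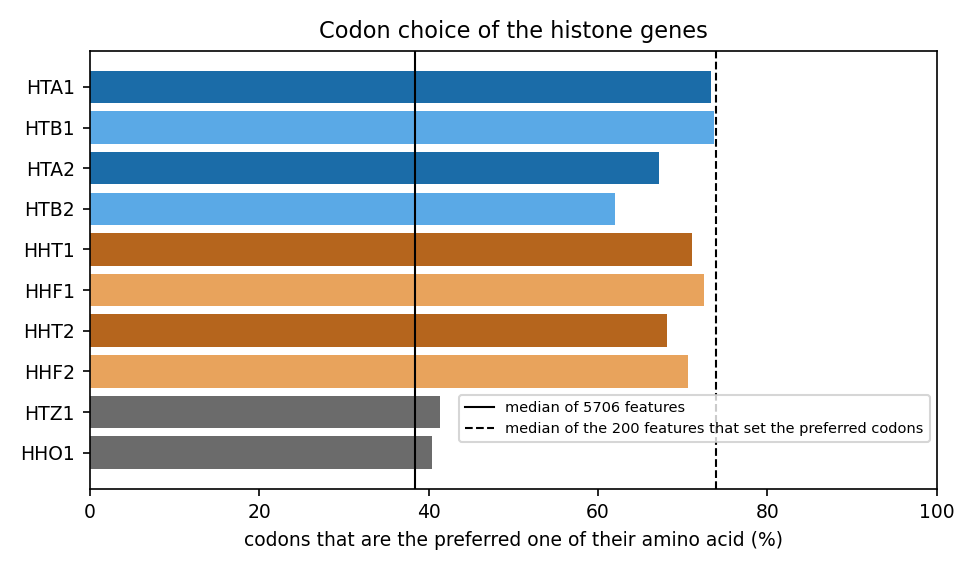
Share of codons that are the preferred one of their amino acid (x, percent) in each histone gene. The core genes lie between 62.0% and 73.6%, near the median of the 200 abundant features that set the preferred codons (dashed, 74.0%), and HTZ1 (41.4%) and HHO1 (40.4%) lie above the median of all features (solid, 38.4%) by a few points.

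The share of basic residues differed between the encoded proteins. Lysine and arginine, the basic residues, made up 15.9% of residues in both H2A copies, 19.8% in HTB1 and 19.1% in HTB2, and 24.3% in the H3 and H4 copies. They made up 20.1% in HTZ1 and 24.0% in HHO1, which held 58 lysines and 4 arginines among 258 residues. No core histone had a cysteine, and HHO1 had 1. HTZ1 was identical to HTA1 at 78 of 127 aligned residues (61.4%), and likewise to HTA2.

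The genes that regulate, assemble and exchange histones were described from a list of 30, all of which were in the table. Their median was 5.55 as log2 CPM per kilobase, against 5.88 over all features, and 9 of the 30 were above that median of all features. The level of the lowest core gene was reached by 0 of the 30 and by 3.39% of the 5696 protein-coding features other than the 10 histone genes, so the count of 0 does not set the list apart. CSE4, the H3 variant of centromeres, had 5.80 as log2 CPM per kilobase, and its chaperone SCM3 had 5.19. The lowest core gene had 18.8 times the level of CSE4.

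Among the activators of histone transcription, 0 of 5 were above the median of all features. SPT10 was the lowest with 4.53 and SWI6 the highest with 5.56 as log2 CPM per kilobase. The HIR complex, which represses all divergent pairs but HTA2-HTB2, had 0 of 4 subunits above that median, with HIR3 at 3.71 and HPC2 at 5.35. Of the 11 assembly factors, 7 were above it. NAP1, a chaperone of H2A and H2B, was the highest of the whole list with 7.89, close to HHO1 (7.93) and above HTZ1 (7.74), and MSI1, a subunit of chromatin assembly factor 1, was the lowest assembly factor with 4.98. Among the 5 genes that exchange or handle H2A.Z, CHZ1, a chaperone of H2A.Z, had 7.47 and INO80, a remodelling ATPase, had 5.13, and 1 of 5 was above the median. Of the 3 genes of histone acetylation, HAT2 had 6.23 and RTT109, the acetyltransferase of new H3, had 4.73, and 1 was above the median.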

How the data were processed

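Messenger RNA of strain BJ5464 was sequenced from 3 heat shock and 3 optimal growth aliquots. Reads were placed by the authors on a masked genome with kalign, and the treatments were then set against each other in edgeR through Trinity. Per the labels, the genome build was R64 (sacCer3). The deposited table gives the log2 of the mean CPM per feature over all libraries, which was used. Its other columns hold the authors' own comparison of the groups (log2 fold change, p-value and adjusted p-value); they were not used, so heat shock and optimal growth were not compared here. The counting of reads, the low-count filter and the depth are not given in the sources used here.

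Of 5793 features, 5708 matched a locus tag of RefSeq assembly R64, 76 matched a symbol and 9 matched no gene; 5706 were protein-coding. The mean CPM was divided by coding length in kilobases. Divergent pairs were adjacent protein-coding genes on opposite strands with starts facing. Words of 50 bases were sought on both strands of the genome, as were 6 motifs. Proteins were translated from the coding sequence and HTZ1 was aligned with BLOSUM62. The software was Biopython 1.88, pandas 2.3.3, numpy 2.4.6 and matplotlib 3.10.9 under Python 3.11.15, and the calculations were tested on simulated sequences and values.

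The genes named were the 10 histone genes, the features beside them and a list of 30 genes, of which the highest and lowest per group are named. The members and lists were chosen with earlier results of these data known. The search of whole gaps and the comparison with short features were added after the data were seen. Alternatives were words that occur once in place of coding length, no scaling by length, 1 CPM added, a minimum log2 CPM of 1, words of 75 or 100 bases and the 250 bases before the start alone.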

Additional observations from a re-analysis of the deposited data

How the results depend on the processing

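With no value per library, results were judged only by whether an alternative moved them by more than 1.5 times, or a percentage or percentile by more than 5 points. Of 122 alternative values, 86 stayed within that, 35 moved and 1 changed sign. The tally is not a measure of stability, because some values could not move and the limits are wide for differences within pairs. HHT2 minus HHF2 counted as unmoved at 0.68 without scaling and at 0.06 with words that occur once, against 0.28. Without scaling by length, HHT1 minus HHF1 was 0.32, since HHF1 is the shorter gene, and the sums were 905 CPM for H2A, 1287 for H2B, 1639 for H3, 1129 for H4 and 86.5 for HTZ1, which puts H4 below H2B. With words that occur once in place of coding length, H4 was at 5455 CPM per kilobase and H3 at 5155, so that H4 was the higher. This alternative could not change a difference between copies, which have equal numbers of such words, and neither could the scaling, as copies have equal lengths. HTZ1 stood above 54.0% of features without scaling by length, and HHO1 above 80.2%. Adding 1 CPM, the minimum log2 CPM of 1 and the shorter promoter window moved no value past these limits. No paired analysis was possible because each gene has 1 pooled value and no value per library. Leaving out each replicate was planned and not run for the same reason, so whether 1 library decides any level is unknown, as are the depth and the error of every value.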
